A study of Mus musculus with 6 samples.

Results

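The 6 joining genes of the TRBJ1 cluster of the mouse T cell receptor β (TCR-β) locus, TRBJ1-1 to TRBJ1-6, were followed through 6 TCR-β libraries. Members are all rows whose joining gene is one of the 6 and whose complementarity-determining region 3 (CDR3, the receptor loop that meets the peptide) carries no stop or frame mark; such sequences are called productive. Clonotypes were told apart by TRBV gene, TRBJ gene and the amino acids of CDR3. TRBJ1 genes held 63945 of the 198807 productive clonotypes listed over the libraries, and 167363 of 496196 productive reads. The remaining 134862 clonotypes used the 6 TRBJ2 genes found in the files.

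A β chain gene is assembled in the thymus by joining a D segment to a J segment and then a V segment to the DJ product. The locus carries a pair of D-J-C clusters. The first D segment can join either J cluster, while the second D segment, which lies downstream of TRBJ1, joins only TRBJ2. A TRBJ1 segment therefore marks a rearrangement made with the first D segment, unless the CDR3 was read as another gene. The J segment encodes the end of CDR3 and the last framework stretch of the variable domain, and the V segment encodes CDR1, CDR2 and the start of CDR3.

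C57BL/6 mice carried MO4 tumors, which are B16F10 melanoma cells that express ovalbumin, under the skin of both hindlimbs (100000 cells per site on day 0). IFN-α-iPSC-pMC, myeloid cells derived from pluripotent stem cells that produce interferon-α, were placed beside the right tumor at 1000000 cells a time. This was done on 3 successive days from day 5 and again on day 12 and day 13, and RNA was taken on day 14. The treated tumors are the injected right tumors, the distant tumors are the left tumors of treated mice, and the spleens are from treated mice. Each group has 2 libraries, the series describes 2 mice, no group comes from untreated mice, and libraries with the same number were taken to come from the same mouse. Whether a library holds 1 tumor or several pooled is not stated, so n = 2 counts libraries. Where a pair of values is given for a group, library 1 stands before library 2. MO4 is a transplanted line that carries a foreign antigen, which limits it as a model of a spontaneous melanoma. The files hold TCR-β sequences and no other transcripts, so tissue and T cell markers were not analysed here.

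The 6 germline segments are shown because their ends fix the CDR3 residues that identify each member. They are the GENCODE M21 transcripts (GRCm38), all on the plus strand of chromosome 6, with the bases that encode CDR3 up to its final phenylalanine in capitals and framework bases in lower case.
TRBJ1-1: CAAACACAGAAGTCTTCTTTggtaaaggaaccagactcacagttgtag
TRBJ1-2: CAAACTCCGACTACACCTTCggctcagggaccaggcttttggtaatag
TRBJ1-3: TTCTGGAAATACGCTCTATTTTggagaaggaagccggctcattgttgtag
TRBJ1-4: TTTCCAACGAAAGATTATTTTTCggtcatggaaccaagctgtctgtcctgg
TRBJ1-5: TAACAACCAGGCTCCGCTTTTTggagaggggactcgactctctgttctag
TRBJ1-6: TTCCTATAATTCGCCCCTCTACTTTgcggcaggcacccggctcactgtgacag

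The cluster runs in gene order from TRBJ1-1 at chr6:41533864-41533911 to TRBJ1-6 at chr6:41535554-41535606, and TRBJ2-1, the first gene of the second cluster, starts 7147 bases further on. The segments are 48 to 53 bases long. TRBJ1-1 and TRBJ1-2 give 6 whole CDR3 residues each, TRBJ1-3, TRBJ1-4 and TRBJ1-5 give 7, and TRBJ1-6 gives 8. Untrimmed, they read NTEVFF (TRBJ1-1), NSDYTF (TRBJ1-2), SGNTLYF (TRBJ1-3), SNERLFF (TRBJ1-4), NNQAPLF (TRBJ1-5) and SYNSPLYF (TRBJ1-6). TRBJ1-6 differs from the other members in the framework as well, where the triplet after the final phenylalanine is gcg in place of a glycine codon.

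Productive reads per library ranged from 42320 to 135599, and TRBJ1 clonotypes from 2350 to 4196 in tumors and from 20756 to 29067 in spleens. One read was worth 0.000737% to 0.00236% of a library, and with 0 reads a share of up to 0.00221% to 0.00709% (3 reads) remains possible. Between 73.3% and 83.5% of TRBJ1 clonotypes in a tumor, and 73.7% and 74.5% in the spleens, rested on 1 read. Reads came from PCR without molecular identifiers, so floors and intervals cover counting error only. In a bulk library a gene's share of reads also cannot separate more cells from more receptor RNA per cell.

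As a whole the cluster took 33.9% and 28.6% of productive reads in the treated tumors, 43.9% and 31.9% in distant tumors 1 and 2, and 31.9% and 31.4% in spleens 1 and 2. The spleens thus lay within 1 percentage point of each other, and distant tumor 1 stood above all other libraries. With each clonotype counted once, the shares were 32.6% and 31.2% in the treated, 37.5% and 33.0% in the distant tumors, and 32.1% and 31.5% in spleens. When the single most abundant clonotype of each library was left out, the read shares came to 31.8% and 29.7% in treated tumors, 31.2% and 33.9% in distant tumors, and 31.8% and 31.2% in spleens. Distant tumor 1 no longer stood apart without that 1 clonotype. With the top 10 clonotypes of every library removed it was again the highest, at 37.8% beside 32.8% in distant tumor 2, with 35.5% and 30.9% in the treated tumors and 31.6% and 31.1% in the spleens.

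Within the cluster, spleens 1 and 2 gave the same order by reads and by clonotypes: TRBJ1-1, TRBJ1-4, TRBJ1-2, TRBJ1-3, TRBJ1-6 and TRBJ1-5 from high to low. Distant tumor 2 had that order on both scales too, while the other tumors each had another. TRBJ1-5 was the least used member in all 6 libraries on both scales. Neighbours in the spleen order did not overlap between the 2 spleens on either scale. By reads TRBJ1-2, at 5.15% and 5.59%, and TRBJ1-3, at 4.81% and 5.06%, lay closest. The 2 spleens differed by at most 1.16-fold in a member's share of reads, seen in TRBJ1-6, whereas the treated tumors differed by up to 2.46-fold, also in TRBJ1-6, and the distant tumors by up to 3.81-fold, in TRBJ1-2.

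**Figure D1:**
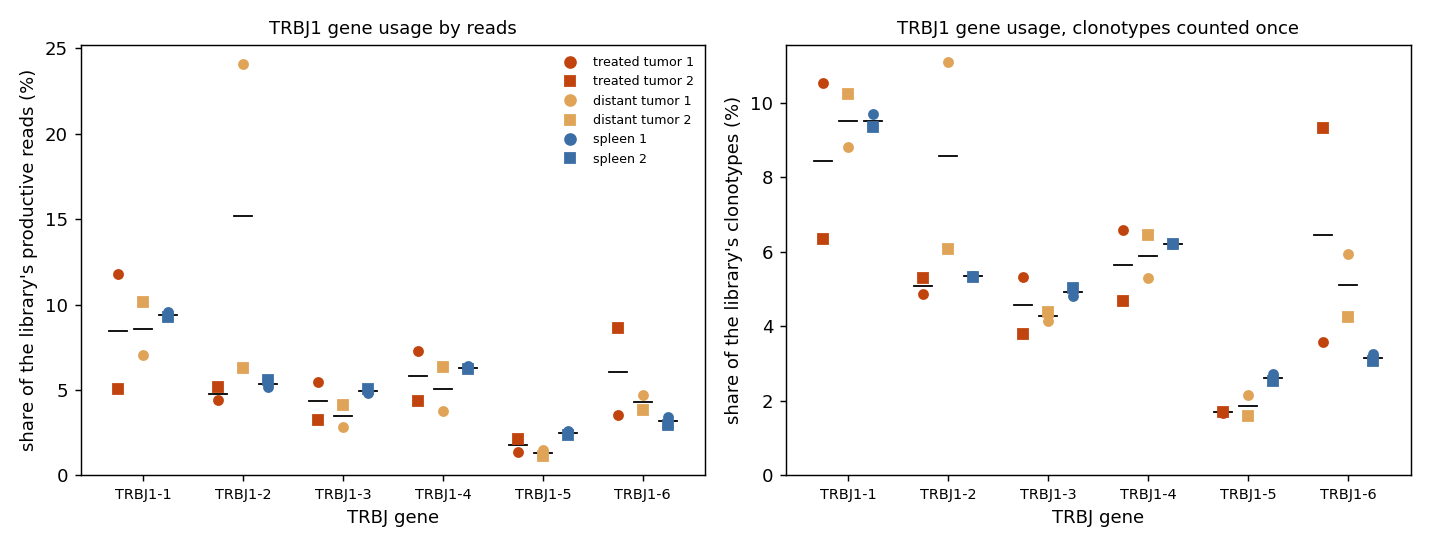
Share of productive reads (left, %) and of clonotypes counted once (right, %) that used each TRBJ1 gene, with treated tumors, distant tumors and spleens from left to right, circles for library 1, squares for library 2 and a bar at the mean of the 2 libraries. TRBJ1-2 in distant tumor 1 (24.1% of reads) and TRBJ1-6 in treated tumor 2 (8.64% of reads) stand above the spleens, and all 4 tumor points of TRBJ1-5 lie below both spleens.

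The treated and distant tumors were first compared over all 12 TRBJ genes, which asks whether the injected tumor drew on other J genes than its uninjected partner. By reads, the quasi-likelihood test of edgeR, Benjamini-Hochberg adjusted, called 1 of 12 TRBJ genes (8.33%), and the called gene was TRBJ1-2. It took 4.40% and 5.16% of reads in the treated tumors, 24.1% and 6.31% in distant tumors 1 and 2, and 5.15% and 5.59% in the spleens. Both treated tumors were below both distant tumors, and distant tumor 1 was far above every other library. The log2 fold change in treated against distant tumors was -1.67 (SE 0.44, edgeR adjusted p = 0.00663).

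The size of that change rested on distant tumor 1. Without that library the log2 fold change was -0.40 (edgeR adjusted p = 0.855), and with the mouse number as a block it was -1.50 (edgeR adjusted p = 0.0984). The call was lost also without treated tumor 1 (-1.56, edgeR adjusted p = 0.0680) and without either spleen (-1.67, edgeR adjusted p = 0.0576). It was lost with TMM scaling (-2.05, edgeR adjusted p = 0.462) and with the top 10 clonotypes of every library removed (-0.34, edgeR adjusted p = 0.741) as well. One clonotype, TRBV12-1/TRBJ1-2 with the CDR3 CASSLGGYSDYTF, held 15201 reads in distant tumor 1, which is 76.9% of the TRBJ1-2 reads and 18.5% of the library (Wilson 95% interval 18.2% to 18.8%), and was the most abundant clonotype there. It had 190 reads in treated tumor 1, 1 read in spleen 2 and none in the other libraries. With the leading TRBJ1-2 clonotype of each library left out, TRBJ1-2 took 3.98% and 4.12% of reads in treated tumors, 5.56% and 4.75% in distant tumors, and 5.09% and 5.29% in spleens. Distant tumor 1 then remained the highest library, but by a small margin.

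With clonotypes counted once, TRBJ1-2 made up 4.88% and 5.29% of clonotypes in treated tumors, 11.1% and 6.08% in distant tumors, and 5.36% and 5.32% in spleens. Distant tumor 1 was again the highest library. The log2 fold change in treated against distant tumors was -0.76 (SE 0.27), which did not pass (edgeR adjusted p = 0.265), and 0 of 12 TRBJ genes (0%) were called. Unadjusted, 1 gene (TRBJ1-2) had a p under 0.05, and DESeq2 called 0.

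In distant tumor 1 the leading clonotype was joined by 722 others with the same TRBV gene, TRBJ gene and CDR3 length, of which 91 were 1 residue away from it, 269 were 2 residues away and 601 were seen in a single read. These 722 formed 58.1% of the TRBJ1-2 clonotypes in that library. The leading TRBJ1-2 clonotype of the other tumors had 63 and 70 such companions in treated tumors 1 and 2 and 95 in distant tumor 2, or 10.1%, 17.5% and 15.1% of the gene's clonotypes. In spleens 1 and 2 it had 35 and 64, or 1.01% and 1.304%. All 4 tumors were thus above both spleens in this share, distant tumor 1 by the most. Every other TRBJ1 member showed the same separation, so it was not particular to TRBJ1-2. For TRBJ1-1 the lowest tumor share was 5.64% (treated tumor 2) and the highest spleen share 2.33% (spleen 1). TRBJ2 genes were not examined in this way. Without the leader and its companions, removed in the same way from every library, TRBJ1-2 took 4.40% and 4.39% of clonotypes in treated tumors, 4.95% and 5.20% in distant tumors, and 5.31% and 5.25% in spleens. Companions were looked at after the values were seen. How many of them are separate T cells and how many are copies changed in PCR or sequencing was not tested.

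The other 5 members did not pass between treated and distant tumors on either scale. By reads their log2 fold changes ran from -0.03 (TRBJ1-1) to 0.50 (TRBJ1-6), each with an SE of 0.43 and an edgeR adjusted p of at least 0.843. The 2 treated tumors differed most in TRBJ1-6, with 3.51% and 8.64% of reads, beside 4.73% and 3.85% in distant tumors and 3.45% and 2.97% in spleens. TRBJ1-1, the most used member in the spleens, took 11.8% and 5.05% of reads in treated tumors, 7.07% and 10.1% in distant tumors, and 9.55% and 9.26% in spleens. TRBJ1-3 took 5.45% and 3.26% in treated tumors, 2.81% and 4.14% in distant tumors, and 4.81% and 5.06% in spleens. TRBJ1-4 took 7.29% and 4.35% in treated tumors, 3.79% and 6.37% in distant tumors, and 6.40% and 6.21% in spleens. In TRBJ1-1, TRBJ1-3 and TRBJ1-4 the treated tumor was the higher one under number 1 and the distant tumor the higher one under number 2.

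The 4 tumors were then compared with the 2 spleens. By reads 0 of 12 TRBJ genes (0%) were called, none had an unadjusted p under 0.05 (0 genes), and DESeq2 gave 0 calls. By clonotypes 0 of 12 (0%) were called as well, with 2 unadjusted p-values under 0.05, both of members, TRBJ1-5 and TRBJ1-6, and none called by DESeq2. In 4 of 12 TRBJ genes (33.3%) the tumors and spleens did not overlap in share of clonotypes, and 2 of those 4 were TRBJ1-5 and TRBJ1-6.

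TRBJ1-5 took 1.68% and 1.71% of clonotypes in treated tumors, 2.15% and 1.59% in distant tumors, and 2.72% and 2.54% in spleens. All 4 tumors were lower than both spleens, by clonotypes and by reads, as in 3 of 12 TRBJ genes (25%) on each scale. The log2 fold change in tumors against spleens was -0.56 by clonotypes (SE 0.18, edgeR adjusted p = 0.139) and -0.71 by reads (SE 0.36, edgeR adjusted p = 0.358). It was negative in all 15 alternatives by clonotypes and all 14 by reads, between -0.68 and -0.26 and between -0.88 and -0.29. By clonotypes it passed when distant tumor 1 was left out (-0.68, edgeR adjusted p = 0.0215) and when distant tumor 2 was left out (-0.46, edgeR adjusted p = 0.0374).

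TRBJ1-6 went the other way in level. It took 3.57% and 9.32% of clonotypes in treated tumors, 5.95% and 4.24% in distant tumors, and 3.26% and 3.06% in spleens. All 4 tumors were above both spleens, treated tumor 2 by far and treated tumor 1 by little. The log2 fold change in tumors against spleens was 0.86 by clonotypes (SE 0.34, edgeR adjusted p = 0.198) and 0.67 by reads (SE 0.38, edgeR adjusted p = 0.358). With 1 library left out it ran from 0.43 to 1.13 by clonotypes, the highest without treated tumor 1, and from 0.28 to 0.92 by reads. In the other alternatives it ran from 0.65 to 0.98 by clonotypes and from 0.59 to 0.86 by reads. Of these, 1 of 9 passed by clonotypes, the crossed block described below (edgeR adjusted p = 0.0215). By reads 1 of 8 passed, with the 10 most abundant clonotypes of each library left out (0.73, edgeR adjusted p = 0.0163).

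In treated tumor 2, 3 TRBV genes supplied most of the TRBJ1-6 clonotypes: TRBV5 with 224, TRBV14 with 207 and TRBV13-1 with 98 of 703. The leading one was a TRBV5/TRBJ1-6 clonotype of 16 residues with 1473 reads, 2.63% of the library (Wilson 95% interval 2.50% to 2.76%), and 204 companions of the same TRBV gene and length. Left out with its companions, it brought TRBJ1-6 to 6.79% of clonotypes in treated tumor 2, against 3.06% in spleen 1 and 2.97% in spleen 2 after the same step. TRBJ1-6 without its TRBV14 clonotypes stood at 3.53% and 6.58% in treated tumors, 5.15% and 3.84% in distant tumors, and 3.02% and 2.94% in spleens, so the tumors stayed above the spleens without that partner.

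The most abundant clonotypes of each member give the sequences behind these shares, and several were shared by libraries of 1 mouse number. A TRBV15/TRBJ1-1 clonotype of 15 residues, which keeps the whole TRBJ1-1 end NTEVFF, led treated tumor 1 with 2550 reads (3.07% of the library) and had 92 reads in distant tumor 1 and 6 in spleen 1, with 1 in distant tumor 2. A TRBV16/TRBJ1-1 clonotype of 15 residues was found in distant tumor 2 alone, with 862 reads. A TRBV20/TRBJ1-2 clonotype of 13 residues had 585 reads in treated tumor 2, 661 in distant tumor 2 and 156 in spleen 2, and none in the libraries numbered 1. The number 2 libraries also shared TRBV15/TRBJ1-2 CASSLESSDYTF, with 361 reads in treated tumor 2, 105 in distant tumor 2 and 411 in spleen 2, where it was the most abundant clonotype of all. A TRBV5/TRBJ1-3 clonotype of 15 residues had 791 reads in treated tumor 1, 175 in distant tumor 1 and 18 in spleen 1. It was not seen in the libraries numbered 2.

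Other leading clonotypes were held almost wholly by 1 library or were found in all 6. TRBV13-2/TRBJ1-3 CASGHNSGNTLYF had 474 reads in distant tumor 2 and at most 1 elsewhere, and TRBV3/TRBJ1-4 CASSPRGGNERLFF had 461 reads there and none elsewhere. The TRBJ1-4 clonotypes that led treated tumor 1 and spleen 1 were present in all 6 libraries. TRBV31/TRBJ1-4 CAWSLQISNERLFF had 421 and 16 reads in treated tumors, 3 and 8 in distant tumors, and 10 and 19 in spleens. TRBV31/TRBJ1-4 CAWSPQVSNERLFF had 135 and 16 reads in treated tumors, 18 and 16 in distant tumors, and 167 and 22 in spleens. A TRBV14/TRBJ1-6 clonotype of 15 residues also occurred in all 6 libraries, with 3 and 356 reads in treated tumors, 192 and 14 in distant tumors, and 236 and 11 in spleens. It was the most abundant clonotype of spleen 1. TRBV1/TRBJ1-5 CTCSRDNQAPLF held 570 reads in treated tumor 2, or 47.9% of the TRBJ1-5 reads of that library, with 36 in distant tumor 2 and 2 in spleen 2.

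Sharing between whole tumor libraries followed the number as well. The 2 spleens, which carry different numbers, had 1781 TRBJ1 clonotypes in common, or 8.58% and 6.13% of those in spleens 1 and 2. Whole tumor and spleen libraries were not compared in this way. Treated and distant tumor 1 had 209 TRBJ1 clonotypes in common, and treated and distant tumor 2 had 138, against 34 between treated tumor 1 and distant tumor 2 and 33 between treated tumor 2 and distant tumor 1. The shared clonotypes carried 42.6% of TRBJ1 reads in treated tumor 1 and 63.6% in distant tumor 1, and 50.7% in treated tumor 2 and 24.3% in distant tumor 2. In number they were 5.02% and 4.98% of the TRBJ1 clonotypes of treated and distant tumor 1, beside 4.60% and 5.65% for TRBJ2. Shared TRBJ2 clonotypes carried 37.9% and 31.5% of TRBJ2 reads in treated and distant tumor 1, and 40.4% and 31.0% under number 2. Of the 36081 TRBJ1 reads of distant tumor 1, 15201 were of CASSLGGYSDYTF, which counted as shared through 190 reads in treated tumor 1. Between members the shared share of reads ran from 22.8% (TRBJ1-2) to 53.6% (TRBJ1-1) in treated tumor 1, and from 26.9% (TRBJ1-4) to 71.8% (TRBJ1-6) in treated tumor 2.

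V partners were described from clonotypes counted once, so that a clonotype with many reads counts as 1, although its companions of the same length still count. In the spleens TRBV13-2 was the most frequent partner of all 6 members, from 11.7% ± 1.43 of the TRBJ1-4 clonotypes to 17.6% ± 0.412 of the TRBJ1-5 clonotypes (SD, n = 2). TRBV1, which lies at the far 5′ end of the locus, was among the top 3 partners of every member except TRBJ1-2. There TRBV12-1 (8.03% ± 0.747) and TRBV31 (7.72% ± 0.858; SD, n = 2), the V gene that sits in inverted orientation downstream of the J clusters, followed TRBV13-2. The remaining places among the top 3 went to TRBV5 (TRBJ1-1, TRBJ1-4 and TRBJ1-6), TRBV13-3 (TRBJ1-3) and TRBV29 (TRBJ1-5).

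Observed clonotypes of a pair were divided by the number expected if V and J were drawn independently in that library. For TRBV13-2 the mean ratio of the 2 spleens was 0.944 with TRBJ1-1, 0.933 with TRBJ1-4 and 1.01 with TRBJ1-6. It was 1.24 with TRBJ1-2, 1.13 with TRBJ1-3 and 1.40 with TRBJ1-5. Over 114 TRBV-TRBJ1 pairs with at least 20 clonotypes in each spleen the mean ratio of the 2 spleens ran from 0.395 to 2.43, and 89 pairs stayed between 1/1.5 and 1.5 in both spleens. The ratios of the 2 spleens had a Pearson r of 0.843 over these pairs, which share their V and J totals. TRBV14/TRBJ1-6 was the single pair above 1.5 in both spleens, at 3.13 in spleen 1 and 1.73 in spleen 2, with 157 and 109 clonotypes. When clonotypes 1 residue from one with at least 20 times their reads were left out, it stood at 2.66 and 1.75. In spleen 1, 134 of the 157 clonotypes shared the 15 residues of the leading TRBV14/TRBJ1-6 clonotype beside the leader itself, and 126 of these 134 had a single read. With all TRBV14/TRBJ1-6 clonotypes of 15 residues left out, a step added after seeing the data that by its construction lowers the ratio, 22 and 53 clonotypes remained and the ratio was 0.513 in spleen 1 and 0.883 in spleen 2. Other pairs kept their clonotypes of 15 residues, so this step cannot show whether the high ratio lay in that length. Among all TRBJ1-6 clonotypes, 32.1% and 28.0% had 15 residues in spleens 1 and 2. With all lengths, the pair's ratio in the tumors was 0.333 and 5.55 in the treated tumors and 4.69 and 3.72 in distant tumors 1 and 2.

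11 pairs were below 1/1.5 in both spleens. TRBV17 accounted for 4 of them, with TRBJ1-5 (mean ratio 0.424), TRBJ1-6 (0.442), TRBJ1-2 (0.523) and TRBJ1-3 (0.634). TRBJ1-6 was low also with TRBV3 (0.395), TRBV16 (0.435) and TRBV15 (0.440). TRBJ1-2 was low with TRBV14 (0.458), and TRBJ1-5 with TRBV26 (0.622). TRBJ1-2 was low with TRBV5 too (0.551), while its ratio with TRBV12-1 was 1.48. TRBJ1-5 was low with TRBV12-1 (0.531), and its ratios with TRBV1 and TRBV29 were 1.52 and 1.502. TRBV12-1 thus paired often with TRBJ1-2 and seldom with TRBJ1-5, and TRBV5 paired seldom with TRBJ1-2 and more often with TRBJ1-6 (1.35). Pairs with fewer than 20 clonotypes in a spleen were not counted here.

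**Figure D2:**
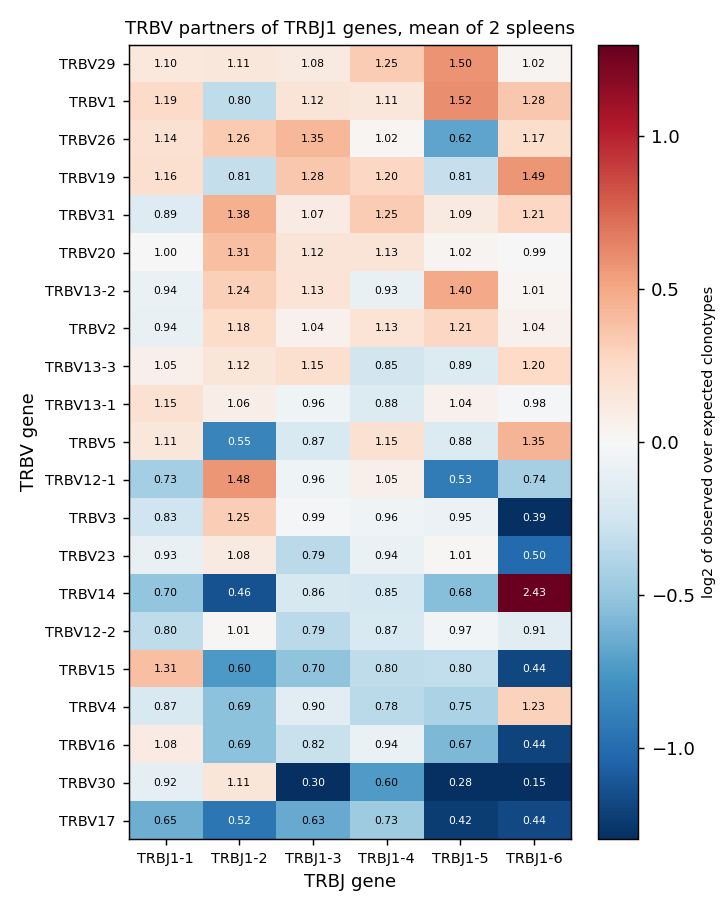
Observed over expected clonotypes for 21 TRBV genes (rows, ordered by their share joined to TRBJ1) and the 6 TRBJ1 genes (columns), as the mean of 2 spleens; the number in each cell is the ratio and the colour its log2. TRBV14 with TRBJ1-6 is the darkest red cell at 2.43, and the TRBV17 row at the bottom is blue throughout.

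V genes also differed in how much of their output went to the cluster as a whole. Among 21 TRBV genes with at least 100 clonotypes in each spleen, TRBV29 (36.7% ± 0.647), TRBV1 (36.1% ± 0.0331) and TRBV26 (36.0% ± 0.352) had the highest spleen means of clonotypes joined to TRBJ1. TRBV17 (19.1% ± 0.633), TRBV30 (21.1% ± 7.94) and TRBV16 (27.0% ± 0.129; SD, n = 2) had the lowest. The low share of TRBV17 was seen in every library, at 12.2% and 16.7% in treated tumors, 16.3% and 16.9% in distant tumors, and 19.6% and 18.7% in spleens. TRBV30 rested on 30 to 72 clonotypes in a tumor and ranged there from 0% to 86.1%. Over the 21 genes the 2 spleens had a Pearson r of 0.873, and a tumor with the spleen of the same number between 0.144 and 0.626.

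**Figure D3:**
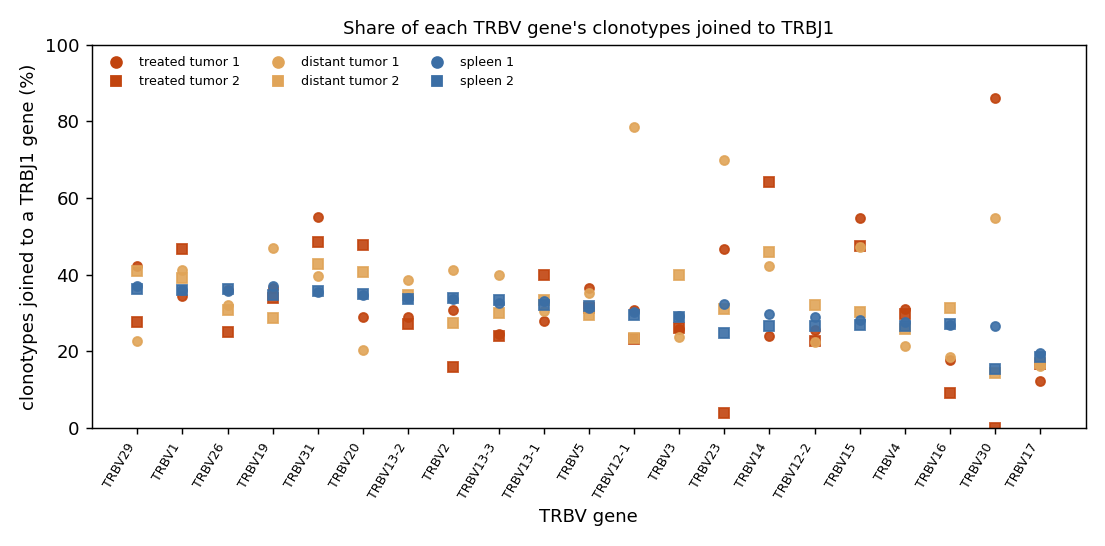
Share of each TRBV gene's clonotypes (%) that were joined to any TRBJ1 gene in each library, with TRBV genes in the order of their spleen mean. The spleen means run from 36.7% for TRBV29 to 19.1% for TRBV17, while tumor points scatter widely, as for TRBV12-1 in distant tumor 1 (78.6%) and TRBV14 in treated tumor 2 (64.2%).

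In the tumors the leading partners varied between libraries far more than in the spleens. TRBV5 was the most frequent partner of TRBJ1-1 (14.9% ± 3.83 of its clonotypes) and of TRBJ1-6 (15.02% ± 12.0), TRBV12-1 of TRBJ1-2 (18.9% ± 28.7), TRBV13-2 of TRBJ1-3 (12.9% ± 8.91) and of TRBJ1-5 (21.6% ± 3.79), and TRBV19 of TRBJ1-4 (9.90% ± 4.47; SD, n = 4). TRBV12-1 formed 9.15% and 1.75% of TRBJ1-2 clonotypes in treated tumors, 61.8% and 3.02% in distant tumors, and 8.56% and 7.50% in spleens, so that 1 library set its tumor mean. TRBV14 formed 1.10% and 29.4% of TRBJ1-6 clonotypes in treated tumors, 13.5% and 9.57% in distant tumors, and 7.44% and 3.86% in spleens. TRBV1 formed 41.1% of the 129 TRBJ1-5 clonotypes of treated tumor 2.

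None of the TRBV-TRBJ pairs passed in either comparison with edgeR's quasi-likelihood test. By reads 0 of 243 pairs (0%) were called between treated and distant tumors and 0 of 243 (0%) between tumors and spleens, 119 of them TRBJ1 pairs, and the smallest adjusted p of a TRBJ1 pair was 0.279 and 0.246. By clonotypes 0 of 224 pairs (0%) were called in both comparisons, 106 of them TRBJ1 pairs, with smallest adjusted p of 0.296 and 0.198. Pairs with an unadjusted p under 0.05 numbered 18 and 33 by reads and 19 and 36 by clonotypes. DESeq2 called 6 and 2 pairs by reads and 0 and 2 by clonotypes. The 6 included 4 TRBJ1 pairs, TRBV12-1/TRBJ1-2, TRBV16/TRBJ1-1, TRBV17/TRBJ1-3 and TRBV4/TRBJ1-2. Without treated tumor 1, the median log2 fold change of all pairs in tumors against spleens was -0.77 by reads and -0.27 by clonotypes. With all 6 libraries it was -0.56 and -0.22.

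The median log2 fold change of the TRBJ1 pairs by reads was -0.61 in tumors against spleens, beside -0.56 for all 243 pairs, a median that was 0.16 with TMM scaling and 0.18 with DESeq2, so its sign depends on the scaling. It was 0.08 in treated against distant tumors, beside 0.22 for all pairs. By clonotypes the TRBJ1 medians were -0.18 in tumors against spleens and -0.14 in treated against distant tumors, beside -0.22 and 0.03 for all 224 pairs. With TMM the median of all pairs by clonotypes in tumors against spleens was 0.06.

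CDR3 length followed the length of the germline segment in part. In the spleens, with clonotypes counted once, TRBJ1-1 had a mean of 13.2 residues (13.25 and 13.24 in spleens 1 and 2), TRBJ1-2 13.5 ± 0.0121, TRBJ1-3 14.2 ± 0.0305, TRBJ1-4 14.2 ± 0.0107, TRBJ1-5 13.8 ± 0.0336 and TRBJ1-6 14.3 ± 0.0631 (SD, n = 2). TRBJ1-1 had the shortest CDR3s, with 9.11% and 9.01% of its spleen clonotypes at 11 residues or fewer, against 1.56% and 1.31% for TRBJ1-6. TRBJ1-6 adds 2 more germline residues than TRBJ1-1 but its CDR3s were about 1 residue longer.

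Tumors and spleens did not overlap in mean CDR3 length for 3 of 12 TRBJ genes (25%), among them TRBJ1-1 and TRBJ1-5. TRBJ1-1 averaged 13.58 and 13.36 residues in treated tumors, 13.57 and 13.67 in distant tumors, and 13.25 and 13.24 in spleens. All 4 tumors were longer, by a mean of 0.296 residues (exact permutation test, two-sided, p = 0.0667, the smallest that 4 against 2 allows; adjusted over 12 genes p = 0.8). TRBJ1-5 averaged 13.76 and 13.09 residues in treated tumors, 13.47 and 13.74 in distant tumors, and 13.84 and 13.80 in spleens. All 4 tumors were shorter, by a mean of 0.302 residues (exact permutation test, two-sided, p = 0.2; adjusted p = 0.8). Weighted by reads, TRBJ1-1 still did not overlap, as 1 of 2 such genes of 12 (16.7%), while TRBJ1-5 overlapped, with 13.79 and 12.82 residues in treated tumors, 13.39 and 13.57 in distant tumors, and 13.77 and 13.76 in spleens (exact permutation test, two-sided, p = 0.333; adjusted p = 0.96).

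Several tumor length profiles peaked at the length of the gene's leading clonotype, while others did not, and several spleen profiles did so too. For TRBJ1-6 in treated tumor 2 the peak was at 15 residues and the leader had 16. For TRBJ1-4 in distant tumor 1 they were at 14 and 11 residues. In treated tumor 2, 50.4% of TRBJ1-5 clonotypes had 12 residues, the length of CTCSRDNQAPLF. In distant tumor 1, 68.4% of TRBJ1-2 clonotypes had 13 residues, the length of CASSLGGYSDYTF, and 51.6% of TRBJ1-6 clonotypes had 15, the length of the leading TRBV12-1/TRBJ1-6 clonotype (1061 reads). That TRBJ1-6 peak held 150 companions of the leader and also 90 clonotypes with TRBV14. In the spleens no TRBJ1 gene had more than 40.0% of its clonotypes at 1 length. Between treated and distant tumors 3 of 12 TRBJ genes (25%) did not overlap in length, of which TRBJ1-2 was a member, with 13.54 and 13.62 residues in treated tumors and 13.20 and 13.44 in distant tumors (exact permutation test, two-sided, p = 0.333, the smallest that 2 against 2 allows). Without clonotypes 1 residue from a far more abundant one, TRBJ1-2 overlapped, at 13.47 and 13.70 residues in treated tumors and 13.25 and 13.53 in distant tumors, and 2 of 12 TRBJ genes (16.7%) did not. No comparison of length could reach 0.05.

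**Figure D4:**
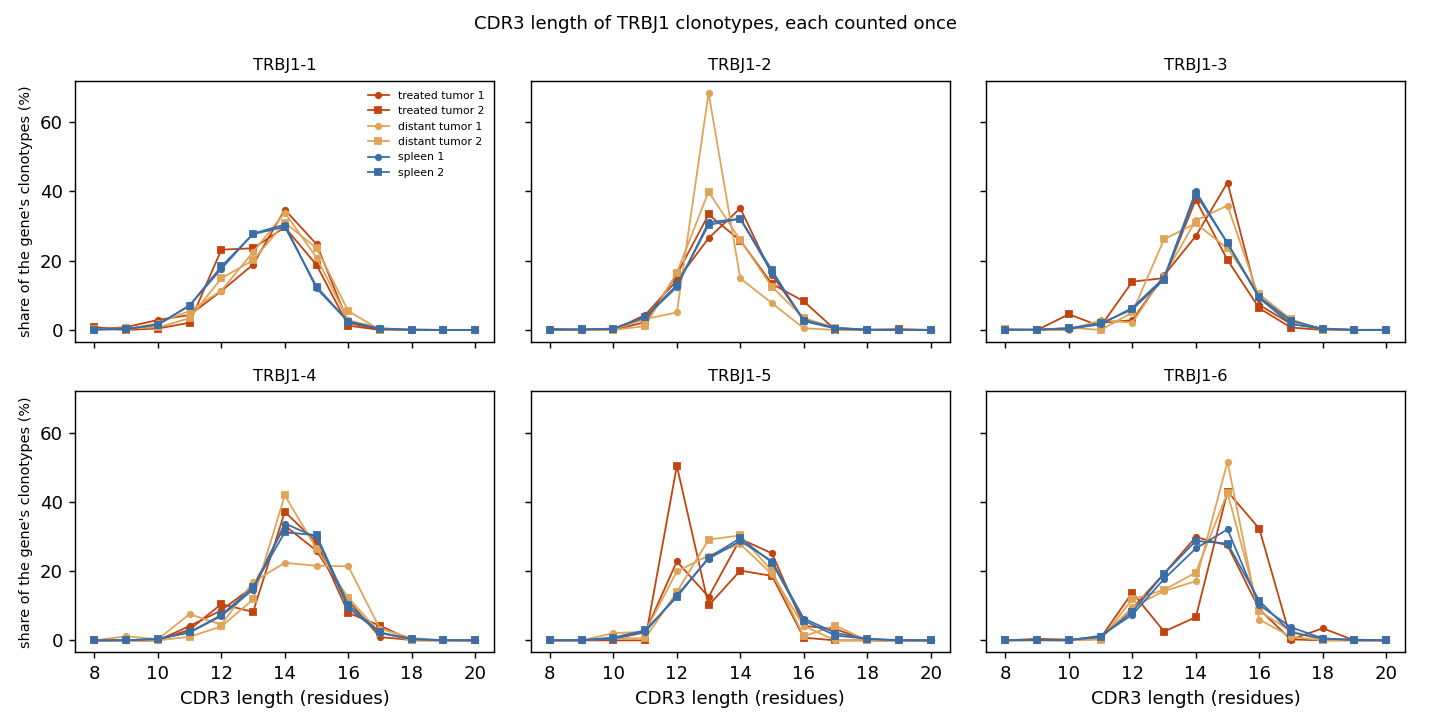
CDR3 length in residues (x axis) against the share of a TRBJ1 gene's clonotypes at that length (y axis, %), each clonotype counted once, with 1 panel per gene and 1 line per library. The 2 spleen lines run together, while distant tumor 1 peaks at 13 residues for TRBJ1-2 (68.4%) and treated tumor 2 at 12 residues for TRBJ1-5 (50.4%).

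Members differed widely in how many CDR3s ended in all whole germline residues of the J segment. The match was read from amino acids, so a segment that lost bases before its first whole codon can still count. It asks for 6 residues in TRBJ1-1 and TRBJ1-2 and for 8 in TRBJ1-6, so members were not held to an equal number. In the spleens TRBJ1-2 ended in its full germline residues in 57.0% and 54.5% of clonotypes and TRBJ1-3 in 55.3% and 52.2%, while TRBJ1-6 did so in 18.1% and 19.5% and TRBJ1-5 in 30.3% and 31.4%. TRBJ1-1 (45.5% and 44.5%) and TRBJ1-4 (39.1% and 37.7%) lay between. The 2 spleens gave the same order, with TRBJ1-6, whose match asks for the most residues, matched in full least often.

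With clonotypes counted once, full ends were less frequent in all 4 tumors than in both spleens for all 6 members, as for 12 of 12 TRBJ genes (100%). For TRBJ1-2 the share was 31.6% and 28.3% in treated tumors, 17.2% and 42.9% in distant tumors, and 57.0% and 54.5% in spleens (exact permutation test, two-sided, p = 0.0667, the smallest possible; adjusted p = 0.08). Weighted by reads, 5 of the 6 members overlapped. TRBJ1-2 had full ends in 47.3% and 54.4% of reads in treated tumors, 10.1% and 74.3% in distant tumors, and 61.6% and 57.3% in spleens. The 1 of 12 TRBJ genes (8.33%) without overlap was TRBJ1-5, at 17.5% and 0.504% of reads in treated tumors, 23.4% and 25.2% in distant tumors, and 30.3% and 33.0% in spleens (exact permutation test, two-sided, p = 0.133; adjusted p = 0.8). Clonotypes 1 residue from one with at least 20 times their reads made up 2.42% to 38.8% of a member's clonotypes in a tumor and 0.112% to 1.66% in a spleen. Without them the difference by clonotypes was still seen in 12 of 12 TRBJ genes (100%), and the part played by changed copies that lie further from their source was not tested.

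Clone size was compared at an equal number of reads, since the number of clonotypes grows with depth. The expected number of clonotypes in 473 reads, the smallest read total of any member in any library, was lower in all 4 tumors than in both spleens for all 6 members, and likewise for 12 of 12 TRBJ genes (100%). The tumors held 117 ± 42.9 (TRBJ1-5) to 171 ± 32.9 (TRBJ1-1) expected clonotypes (SD, n = 4), against 413 ± 26.3 (TRBJ1-6) to 457.8 ± 4.44 (TRBJ1-1) in the spleens (SD, n = 2). Each of the 6 differences had an exact permutation p of 0.0667 (two-sided), the smallest that 4 against 2 allows, which was also the adjusted p. The test treated the 6 libraries as exchangeable, although the 4 tumors were taken to come from 2 mice, so n = 4 counts libraries.

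Treated tumors were below distant tumors in 5 of 6 members, beside 7 of 12 TRBJ genes (58.3%) in which these groups did not overlap. The lowest value was that of TRBJ1-5 in treated tumor 2. That gene gave 114 and 61.6 expected clonotypes in treated tumors, 128 and 165 in distant tumors, and 424 and 444 in spleens. TRBJ1-2 was the exception, with 161 and 109 in treated tumors, 76.1 and 182 in distant tumors, and 448 and 424 in spleens. The exact permutation p was 0.333 for each of the 5 members (two-sided, the smallest that 2 against 2 allows; adjusted p = 0.571).

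Between treated and distant tumors 3 of 12 TRBJ genes (25%) did not overlap in top share, 2 of them members, TRBJ1-2 and TRBJ1-5. The share of a member's reads in its most abundant clonotype was higher in all 4 tumors than in both spleens for every member, as in 12 of 12 TRBJ genes (100%). It was lowest in tumors for TRBJ1-1 in treated tumor 2 (6.68%) and highest for TRBJ1-2 in distant tumor 1 (76.9%). In the spleens it ran from 0.374% for TRBJ1-1 to 7.07% for TRBJ1-6. Mean reads per clonotype were 2.87 to 15.9 in tumors and 1.36 to 1.58 in spleens.

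**Figure D5:**
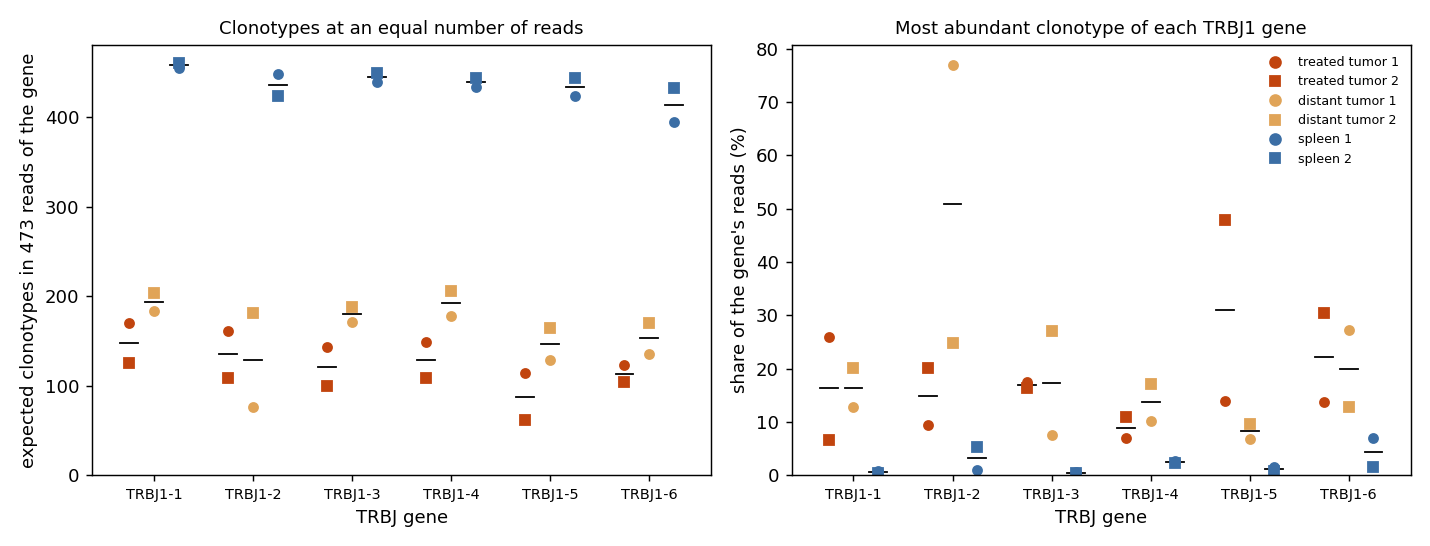
Expected number of clonotypes in 473 reads of each TRBJ1 gene (left) and share of the gene's reads in its most abundant clonotype (right, %), with treated tumors, distant tumors and spleens from left to right, circles for library 1, squares for library 2 and a bar at the mean. Spleens lie between 395 and 461 clonotypes and tumors between 61.6 and 206, and TRBJ1-2 in distant tumor 1 has the highest top share, 76.9%.

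The genes whose shares of reads moved most like each member over the 6 libraries were found by Pearson r of log2(share + 0.01%), as a description over libraries that share reads totals. TRBJ1-3 was most like TRBJ1-4 (0.961) among TRBJ genes and TRBV13-2 (0.951) among TRBV genes. TRBJ1-4 was most like TRBJ2-2 (0.985) and TRBV13-2 (0.909), and TRBJ1-1 like TRBJ2-2 (0.865) and TRBV12-2 (0.768). The other members had weaker matches among TRBJ genes, TRBJ2-1 for TRBJ1-6 (0.697) and for TRBJ1-2 (0.652), and TRBJ2-4 for TRBJ1-5 (0.586). The nearest TRBV gene was TRBV5 for TRBJ1-6 (0.7996), TRBV29 for TRBJ1-2 (0.893) and TRBV24 for TRBJ1-5 (0.746). TRBV24 had only 6 and 5 clonotypes in treated tumors, 5 and 1 in distant tumors, and 29 and 42 in spleens. Its match with TRBJ1-5 therefore rests on very few sequences.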

How the data were processed

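Total RNA was converted to cDNA, adaptor-ligated and amplified with primers for the adaptor and the TCR-β constant region, and sequenced as paired 300-base MiSeq reads, per the labels' protocols. No molecular identifiers are described there. The files deposited by the authors list, per the file headers, TRBV gene, TRBJ gene, CDR3 amino acids, a read count and a percent of all reads of the library. Sources used here do not give the tool, reference or genome build behind the gene assignment. Counts were used as deposited, and the deposited percent served as a check on them.

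Rows with * or . in CDR3 (4.45% to 6.62% of reads) were left out. Counts of reads and of clonotypes per TRBJ gene and per TRBV-TRBJ pair were tested with edgeR 4.0.16 (R 4.3.3; quasi-likelihood test, library size as all productive reads or clonotypes, 3 groups in a fit of all 6 libraries, 3 residual degrees of freedom, Benjamini-Hochberg threshold 0.05). Pairs were filtered with filterByExpr. DESeq2 1.42.0 was an alternative. For CDR3 length and clone size, two-sided exact permutation tests over libraries were used (numpy 2.4.6), without regard to mouse number. Expected numbers of clonotypes were computed with scipy 1.17.1. Shares of single clonotypes have Wilson 95% intervals. The fits were run on simulated counts with 4-fold or 16-fold changes set in both treated tumors. All 3 changed TRBJ genes were called at either fold. At 4-fold, 48 of 50 changed pairs were called by reads and 39 of 50 by clonotypes. Fits of pairs gave 1 to 4 false calls. No clone high in 1 library was simulated, so these runs cannot show how the fits treat one.

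Groups come from the sample titles. The series describes 2 mice, and libraries with 1 number were taken as 1 mouse. Over the 12 TRBJ genes, deviations of same-numbered libraries from group means had correlations of -0.485 (treated and distant tumor), -0.480 (treated tumor and spleen) and -0.130 (distant tumor and spleen) by reads, and of -0.543, -0.485 and 0.357 for these pairs by clonotypes. Nothing says that libraries of a group are independent beyond the mouse, so p-values measure the spread between these libraries. The members and lists were chosen with earlier results of these data known. Named items are all 6 members, per member the 3 leading TRBV partners in spleens and in tumors, the TRBV genes with the 3 highest and lowest shares joined to TRBJ1 in spleens, the most abundant clonotype per member and tissue, and the most alike TRBJ and TRBV gene; other pairs were named after their values were seen. TRBV12 and TRBV13 members are close relatives between which reads could be split. Positions and segment sequences are those of GENCODE M21 (GRCm38).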

Additional observations from a re-analysis of the deposited data

Results flagged for a closer look

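TRBJ1-2 in distant tumor 1, at 24.1% of productive reads, stood outside the other 3 tumors by Dixon's test. Of 30 sets of 4 tumor values tested over the members, only this 1 did so, and chance alone flags about 1 in 20 such sets.

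TRBJ1-2 also moved in opposite directions in the 2 kinds of tumor when each was set against the spleen of the same number, a difference that was not tested. By reads treated tumors were lower by -0.75 and -0.43 percentage points and distant tumors higher by 18.9 and 0.72 points. By clonotypes the treated tumors differed by -0.48 and -0.028 points and the distant tumors by 5.73 and 0.76 points. Each pair of tumors shares its spleen, and the value of distant tumor 1 is that of the clone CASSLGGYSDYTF and its companions described above. Without each library's leading TRBJ1-2 clonotype, distant tumor 1 took 5.56% of reads against 5.09% in spleen 1. Distant tumor 2 then took 4.75% against 5.29% in spleen 2. Without leaders and their companions, the distant tumors took 4.95% and 5.20% of clonotypes against 5.31% and 5.25% in the spleens. The opposite directions then held under number 1 by reads only.

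Among sequences with a stop or frame mark, which the comparisons leave out, TRBJ1 genes took 30.2% of reads in treated tumor 1, 37.4% in distant tumor 1 and 35.5% in distant tumor 2, above the 28.8% and 29.2% of spleens 1 and 2. Treated tumor 2 was at 28.2%. TRBJ1-2 alone took 15.5% of marked reads in distant tumor 1, beside 5.44% and 5.31% in the spleens, and TRBJ1-1 took 13.0% in distant tumor 2. The TRBJ1 share of productive reads was 33.9% and 28.6% in treated tumors, 43.9% and 31.9% in distant tumors, and 31.9% and 31.4% in spleens. In the spleens TRBJ1-1 took 5.77% and 6.49% of marked reads, against 9.55% and 9.26% of productive reads.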

How the results depend on the processing

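The 4 comparisons of CDR3 length and clone size gave 0 calls under all alternatives run, which says nothing about stability, since 2 against 2 or 4 against 2 libraries cannot pass. By reads per TRBJ gene, the call between treated and distant tumors (1) became 0 with TMM scaling, with the replicate block and without the 10 most abundant clonotypes, and leaving out 1 library gave 0 to 2 calls. TRBJ1-2 lost its call without treated tumor 1, distant tumor 1, spleen 1 or spleen 2. For tumors against spleens by reads, 1 gene was called without the 10 most abundant clonotypes and 0 to 2 when 1 library was left out, the 2 without distant tumor 2. By clonotypes, leaving out 1 library gave 0 to 1 calls between treated and distant tumors and 0 to 4 between tumors and spleens, the 4 without distant tumor 2. By pair, DESeq2 called 6 and 2 by reads and 2 by clonotypes (tumors against spleens), 1 pair was called without single-read clonotypes, and leaving out 1 library gave 0 to 22 calls by reads and 0 to 9 by clonotypes in tumors against spleens, the highest without treated tumor 1. The replicate block gave 0 calls in each comparison and changed no other call. With the numbers of the distant tumors crossed in the block, chosen after seeing the data, 1 gene was called in treated against distant tumors by reads and 1, TRBJ1-6, in tumors against spleens by clonotypes. The causes were not tested.

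Log2 fold changes of members that changed sign had not been called. In treated against distant tumors by reads these were TRBJ1-4 (-0.033 with TMM), TRBJ1-1 (0.00058 without single-read clonotypes) and TRBJ1-6 (-0.14 without the 10 most abundant clonotypes), and by clonotypes TRBJ1-3 (-0.073 without single-read clonotypes). In tumors against spleens they were TRBJ1-1 (0.034 by reads and 0.0046 by clonotypes, DESeq2) and TRBJ1-4 (0.13 by reads without the 10 most abundant, 0.020 by clonotypes without single-read clonotypes). Leaving out 1 library, the values in treated against distant tumors by reads ran from -0.77 to 0.46 (TRBJ1-1), -0.089 to 0.65 (TRBJ1-3), -0.22 to 0.62 (TRBJ1-4) and -0.29 to 1.01 (TRBJ1-6). By clonotypes they ran from -0.58 to 0.15 (TRBJ1-1), -0.17 to 0.32 (TRBJ1-3), -0.33 to 0.17 (TRBJ1-4), -0.34 to 0.090 (TRBJ1-5) and -0.51 to 0.87 (TRBJ1-6). In tumors against spleens they ran from -0.51 to 0.10 (TRBJ1-1, reads), -0.29 to 0.073 (TRBJ1-1, clonotypes) and -0.24 to 0.0039 (TRBJ1-4, clonotypes).

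TMM moved the median of the 12 TRBJ genes by -0.26 in treated against distant tumors by reads, and DESeq2 moved that of all pairs by 0.74 in tumors against spleens by reads.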
